A study of Mus musculus with 4 samples.

Results

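Expression of 9 genes that supply deoxynucleotides and folate cofactors for DNA synthesis was followed on 4 liver microarrays. They were taken as a named set (Rrm1, Rrm2, Rrm2b, Tyms, Tk1, Dut, Slc19a1, Shmt1 and Mthfd1), each read from the brightest probe set that carried its symbol alone. All 9 of 9 genes had such a probe set, out of 19505 genes with a named probe set in all. The groups were livers with Mcu knocked down, sampled at 30 h or at 0 h of partial hepatectomy, and control livers, also sampled at 30 h or at 0 h. Mcu encodes the pore of the mitochondrial calcium uniporter. Every mouse was a male on the C57BL6J background, 10 to 12 weeks old at injection, and the protocol describes the animals as MCUloxp/loxp. Knockdown mice received AAV8-TBG-Cre by tail vein and control littermates, whose genotype label reads Wild type, received AAV8-TBG-Null. The TBG promoter directs Cre to hepatocytes, and other liver cells were not its target. Surgery removed 70% of the liver 5 weeks after injection, and the 30 h groups are the remnant. Each group was 1 array. The series text gives 4 pooled biological replicates for a genotype and does not say how they fall on the arrays. With 1 array a group, no value has a replicate error and no test was run, and whether neighbouring levels differ beyond the spread cannot be said. No sham operation was among the groups, so loss of liver, surgery and time of sampling cannot be told apart in a 30 h against 0 h difference. The labels conflict in places. The genotype label of both knockdown arrays does not match the MCUloxp/loxp of the protocol, so the titles, the series text and the Mcu level are the basis for calling them Mcu knockdown. The free-text descriptions mention ethanol feeding, which no other label does, and the one of the knockdown 30 h array speaks of 1 h after surgery.

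Deoxynucleotides are made by ribonucleotide reductase, which pairs a large subunit (Rrm1) with a small one (Rrm2 in S phase, or the p53-inducible Rrm2b outside it). Thymidylate comes from deoxyuridylate by thymidylate synthase (Tyms), which uses a folate cofactor, or from thymidine by thymidine kinase (Tk1), while the dUTPase Dut makes deoxyuridylate and keeps uracil out of DNA. Folate enters cells through carriers such as Slc19a1 and is charged with carbon units by Shmt1 and Mthfd1 in the cytosol. In a quiescent liver few hepatocytes replicate DNA, and after hepatectomy many enter S phase together.

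Values are log2 expression after RMA, so a difference of 1 is 2-fold. A gene was called when 2 arrays differed by at least 2-fold, and the shares of all 19505 genes called stand beside the counts of the 9 genes for each comparison and direction. Array medians lay between 3.75 and 3.84. Mcu, the targeted gene, read 2.63 at 30 h and 2.83 at 0 h in knockdown liver, against 4.30 at 30 h and 4.77 at 0 h in control liver, so it was lower on both knockdown arrays. The 9 hepatocyte markers averaged between 11.0 and 11.2 on all 4 arrays. Single markers moved both ways between 0 h and 30 h. They ran from -0.51 (Ttr) to 0.62 (Pck1) in the knockdown and from -0.53 (Cyp2e1) to 0.93 (Pck1) in the control. Less of a transcript per cell and fewer cells that hold it cannot be told apart in these tissue samples.

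The sequence before the start site is shown for Rrm1, Rrm2 and Tyms, the genes at least 2-fold higher at 30 h in both genotypes, and for Tk1, which differed little among the arrays. The sequences are RefSeq's for mouse assembly GRCm38.p6, read 5′ to 3′ towards the gene, without bases that any RefSeq transcript of the gene covers. Capitals mark a match to an E2F motif on either strand.
Rrm1, chr7:102441445-102441694, plus strand: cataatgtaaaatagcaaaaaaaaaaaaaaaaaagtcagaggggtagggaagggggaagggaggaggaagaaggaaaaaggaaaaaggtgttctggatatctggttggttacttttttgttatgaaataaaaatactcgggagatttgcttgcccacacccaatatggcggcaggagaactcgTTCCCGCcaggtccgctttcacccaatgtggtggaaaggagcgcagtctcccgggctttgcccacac
Rrm2, chr12:24708004-24708253, plus strand: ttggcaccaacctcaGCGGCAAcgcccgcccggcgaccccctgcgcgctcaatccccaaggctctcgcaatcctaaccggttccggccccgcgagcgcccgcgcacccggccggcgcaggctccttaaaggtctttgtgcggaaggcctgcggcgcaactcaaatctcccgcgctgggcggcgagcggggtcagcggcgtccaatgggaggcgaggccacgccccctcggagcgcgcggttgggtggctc
Tyms, chr5:30073646-30073875, minus strand: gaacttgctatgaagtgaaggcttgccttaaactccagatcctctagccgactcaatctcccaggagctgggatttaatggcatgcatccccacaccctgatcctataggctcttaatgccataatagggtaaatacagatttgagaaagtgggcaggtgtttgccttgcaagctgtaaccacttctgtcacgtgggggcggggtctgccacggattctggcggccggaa
Tk1, chr11:117826088-117826264, minus strand: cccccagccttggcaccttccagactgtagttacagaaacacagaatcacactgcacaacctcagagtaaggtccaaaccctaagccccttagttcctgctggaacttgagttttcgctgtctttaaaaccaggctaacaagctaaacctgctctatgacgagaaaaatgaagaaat

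E2F factors switch on many S-phase genes. The letters searched were TTCCCGC and also TTGGCGC or else TTCGCGC or lastly TTGCCGC, each on both strands, over windows of 250 bases before to 50 bases after each RefSeq start. Of 32851 windows in the table, 9.57% held a match. The table had 9 windows for 8 of the genes (Slc19a1 has 2 starts, and no window was found for Rrm2b), and 4 of these held a match: those of Rrm1, Rrm2, Shmt1 and Mthfd1. None of the 5 matches in them overlapped the other motifs searched. The match began at base -67 from the start in Rrm1 and at base -235 in Rrm2. The windows of Tyms, Tk1, Dut and Slc19a1 held none of these letters, which says nothing about the factor. A CCAAT box (CCAAT) was found in 4 of the 9 windows and in 37.4% of all windows, a GC box (GGGCGG) in 7 of 9 and in 35.7%, and the cell cycle element CHR (TTTGAA or TTCGAA) in 0 of 9 and in 19.2%. Matches thus did not divide the genes that were higher at 30 h from those that were not: Shmt1 and Mthfd1 held E2F letters and differed little between times, while Tyms held none.

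Rrm1 and Rrm2, which together form the S-phase enzyme, had the widest ranges of the set over the 4 arrays, 3.79 for Rrm1 and 3.69 for Rrm2. Rrm1 read 6.44 at 30 h and 3.72 at 0 h in knockdown liver, against 7.51 at 30 h and 4.49 at 0 h in control liver. It was thus higher at 30 h in both genotypes, by 6.59-fold in the knockdown (log2 difference 2.72, the 14th highest of all genes) and by 8.11-fold in the control (3.02, the 29th highest). Both knockdown arrays were below the control array of the same time, by 0.77 at 0 h and by 1.07 at 30 h. The knockdown response of Rrm1 minus its control response was -0.30.

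Rrm2 encodes the small subunit whose level limits the enzyme in cycling cells. It read 5.50 at 30 h and 4.20 at 0 h in knockdown liver, against 7.09 at 30 h and 3.40 at 0 h in control liver. The 4 arrays ran from control 0 h, the lowest, through knockdown 0 h and knockdown 30 h to control 30 h. The response was 2.46-fold in the knockdown (1.30, the 237th highest gene) and 12.9-fold in the control (3.69, the 10th highest). Knockdown liver stood 0.80 above control at 0 h and 1.59 below it at 30 h. The difference at 30 h was 3.01-fold and the 36th lowest of all genes. The 2 responses differed by -2.39, the 13th lowest of all genes. Rrm1 was thus lower in the knockdown at both times, while Rrm2 was higher at 0 h and lower at 30 h. The 0 h part of this contrast is weak, as neither gene was called between genotypes at 0 h. Rrm1 (-0.77) was the 660th lowest and Rrm2 (0.80) the 617th highest of all genes there, so many genes differed by more. Whether the 2 subunits truly differ in direction at 0 h was not tested.

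Rrm2b, the small subunit that p53 induces and that quiescent cells use, read 2.53 at 30 h and 2.36 at 0 h in knockdown liver, against 3.16 at 30 h and 2.54 at 0 h in control liver. These levels lay between percentiles 17.8 and 37.5 of all genes on their arrays, and Rrm2b was the only gene of the set whose mean was under the median gene mean of 3.83. Its largest difference was -0.63, between the genotypes at 30 h. It was not called in any comparison, and at such dim levels folds are understated.

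**Figure D1:**
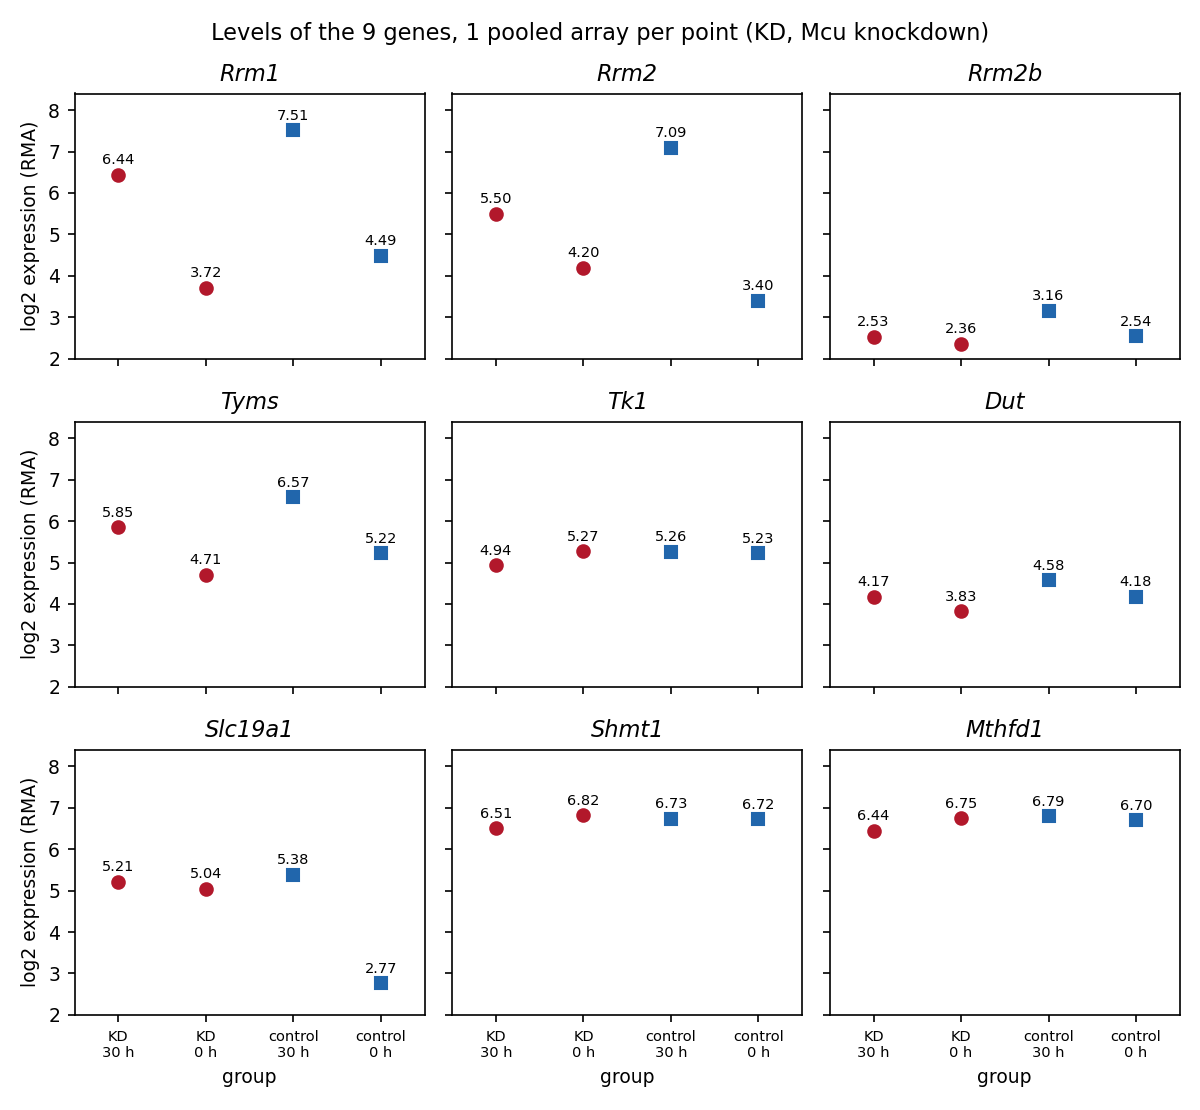
Log2 expression (vertical axis) of each of the 9 genes on the 4 arrays, with knockdown arrays as red circles and control arrays as blue squares. Each point is 1 array and has no error bar. How the pooled replicates of the series text fall on the arrays is not given. Rrm1, Rrm2 and Tyms are higher at 30 h in both genotypes, Slc19a1 is low on the control 0 h array alone, at 2.77, and Tk1, Shmt1 and Mthfd1 are nearly level.

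Of the genes of thymidylate supply, Tyms was called and Tk1 and Dut were not. Tyms, which makes thymidylate with a folate cofactor, read 5.85 at 30 h and 4.71 at 0 h in knockdown liver, against 6.57 at 30 h and 5.22 at 0 h in control liver. It was higher at 30 h by 2.20-fold in the knockdown (1.14) and by 2.55-fold in the control (1.35). As for Rrm1, both knockdown arrays lay below the control array of their time, by 0.51 at 0 h and by 0.72 at 30 h.

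Dut, which hydrolyses dUTP, differed in the same directions as Tyms at a smaller size. It read 4.17 at 30 h and 3.83 at 0 h in knockdown liver, against 4.58 at 30 h and 4.18 at 0 h in control liver. The differences between times were 0.34 in the knockdown and 0.40 in the control, and those between genotypes were -0.35 at 0 h and -0.41 at 30 h. All 4 lay inside the central 95% of all genes, which ran from -0.93 to 0.95 for the genotypes at 30 h.

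Tk1, the thymidine kinase of the salvage route and a common marker of S phase, was nearly level. It read 4.94 at 30 h and 5.27 at 0 h in knockdown liver, against 5.26 at 30 h and 5.23 at 0 h in control liver. The 2 control arrays differed by 0.03, a 1.02-fold difference and the 9024th highest of 19505 genes, on the arrays where Rrm2 differed by 3.69. The sign of the control difference turned after quantile normalization or cyclic loess, where it reached -0.10.

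Among the folate genes, Slc19a1 had the only called differences. Slc19a1, the reduced folate carrier of the plasma membrane, read 5.21 at 30 h and 5.04 at 0 h in knockdown liver, against 5.38 at 30 h and 2.77 at 0 h in control liver. The control 0 h array stood alone, at percentile 27.2 of all genes on its array, and the other 3 arrays lay between 5.04 and 5.38, at percentiles 71.5 to 75.2. At 0 h the knockdown was 4.82-fold higher (2.27), the highest difference of all 19505 genes in that comparison. The response to hepatectomy was 1.13-fold in the knockdown (0.17) and 6.11-fold in the control (2.61, the 53rd highest). At 30 h the genotypes differed by -0.17. The difference at 0 h, the control response and the difference of the responses (-2.44, the 10th lowest) all use the same control 0 h array, so they are not separate observations, and no second array of that group shows how far its value would vary.

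Shmt1 and Mthfd1, which load carbon units from serine and formate onto folate, were nearly level. Shmt1 read 6.51 at 30 h and 6.82 at 0 h in knockdown liver, against 6.73 at 30 h and 6.72 at 0 h in control liver. Mthfd1 read 6.44 at 30 h and 6.75 at 0 h in knockdown liver, against 6.79 at 30 h and 6.70 at 0 h in control liver. Both were lower at 30 h by 0.31 in the knockdown and near 0 in the control (0.01 for Shmt1 and 0.09 for Mthfd1). These small control differences were below 0 after quantile normalization or cyclic loess, down to -0.22 for Shmt1 and -0.14 for Mthfd1.

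Rrm1, Rrm2 and Tyms were called as higher at 30 h in both genotypes, and Slc19a1 in the control alone, where the call rests on the 0 h array. In knockdown liver 3 of 9 genes were at least 2-fold higher at 30 h (Rrm1, Rrm2 and Tyms) and 0 lower, against 2.72% of all genes higher and 2.01% lower. In control liver 4 of 9 were at least 2-fold higher (the same 3 and Slc19a1) and 0 lower, against 4.19% of all genes higher and 2.22% lower. The median over the 9 genes was 0.17 in the knockdown and 0.62 in the control, beside medians over all genes of 0.01 in the knockdown and -0.01 in the control. The 3 genes lay among the 326 highest of all genes in the knockdown and the 350 highest in the control. In the plot of responses, Rrm1 and Tyms lie close to the line of equal response, and Rrm2 and Slc19a1 lie far on the control side of it.

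**Figure D2:**
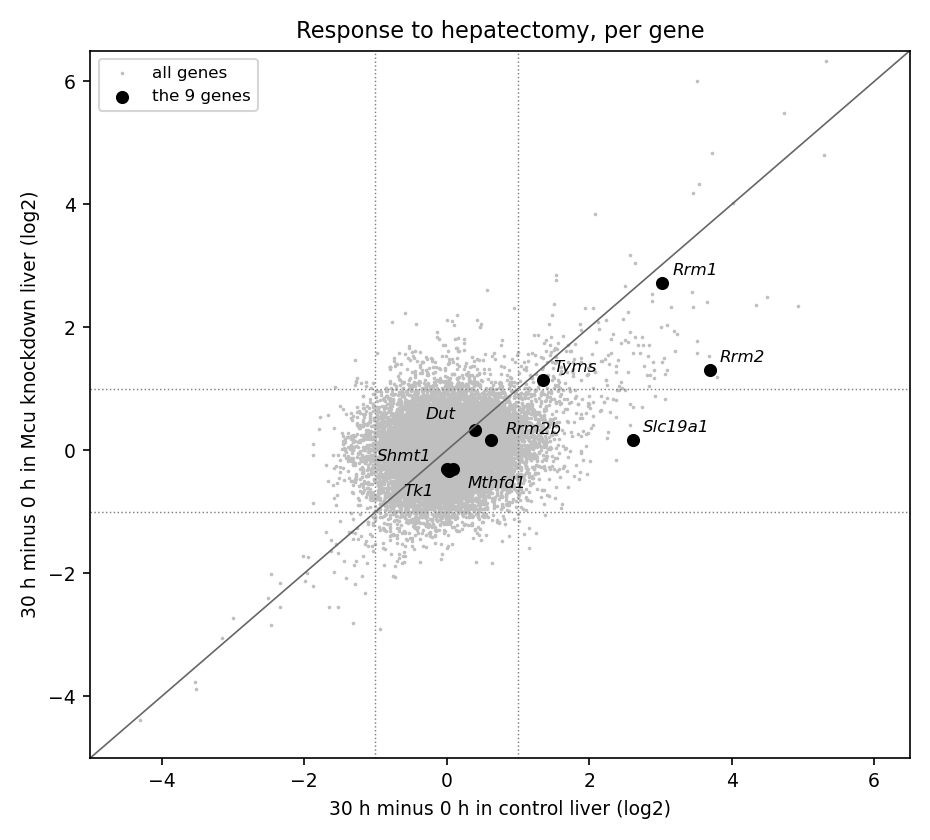
Difference between 30 h and 0 h in knockdown liver (vertical axis, log2) against that in control liver (horizontal axis, log2), with all genes in grey and the 9 genes in black; the solid line marks equal responses and the dotted lines mark 2-fold. Rrm1 (2.72 in the knockdown, 3.02 in the control) and Tyms (1.14 in the knockdown, 1.35 in the control) lie near the line, while Rrm2 (1.30 in the knockdown, 3.69 in the control) and Slc19a1 (0.17 in the knockdown, 2.61 in the control) lie below it.

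Between genotypes, the set split at 0 h and pointed one way at 30 h. At 0 h 1 of 9 genes was at least 2-fold higher in the knockdown (Slc19a1) and 0 were at least 2-fold lower, against 1.45% of all genes higher and 1.25% lower. Rrm2 was the next highest at 0.80, while Rrm1 (-0.77), Tyms (-0.51), Dut (-0.35) and Rrm2b (-0.18) were below 0 and the other 3 lay between 0.04 and 0.10. The signs of Tk1 (down to -0.01) and Mthfd1 (down to -0.03) at 0 h turned with the scaling. At 30 h 0 of 9 were at least 2-fold higher and 2 were at least 2-fold lower (Rrm2 and Rrm1), against 2.07% of all genes higher and 1.86% lower. The call of Rrm1 was lost after quantile normalization (-0.88) and cyclic loess (-0.93). All 9 genes were below 0 at 30 h, with a median of -0.41, against 49.8% of all genes and 61.2% of the brighter 9759 genes (mean at or above 3.83), whose median was -0.11. Of all genes called at 30 h, 52.6% were higher as deposited, 33.3% after median centring and 41.5% after cyclic loess. The balance of calls thus depends on the scaling. All 9 genes stayed below 0 in each, but Shmt1 (-0.02) and Slc19a1 (-0.06) came near 0 after quantile normalization. The shares of all genes below 0 are those of the deposited values.

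For the difference of the 2 responses, 0 of 9 genes were at least 2-fold higher and 2 were at least 2-fold lower (Slc19a1 and Rrm2), against 6.00% of all genes higher and 5.82% lower. The other 7 genes had differences between -0.45 and -0.06, and that of Tyms turned to 0.03 after quantile normalization.

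**Figure D3:**
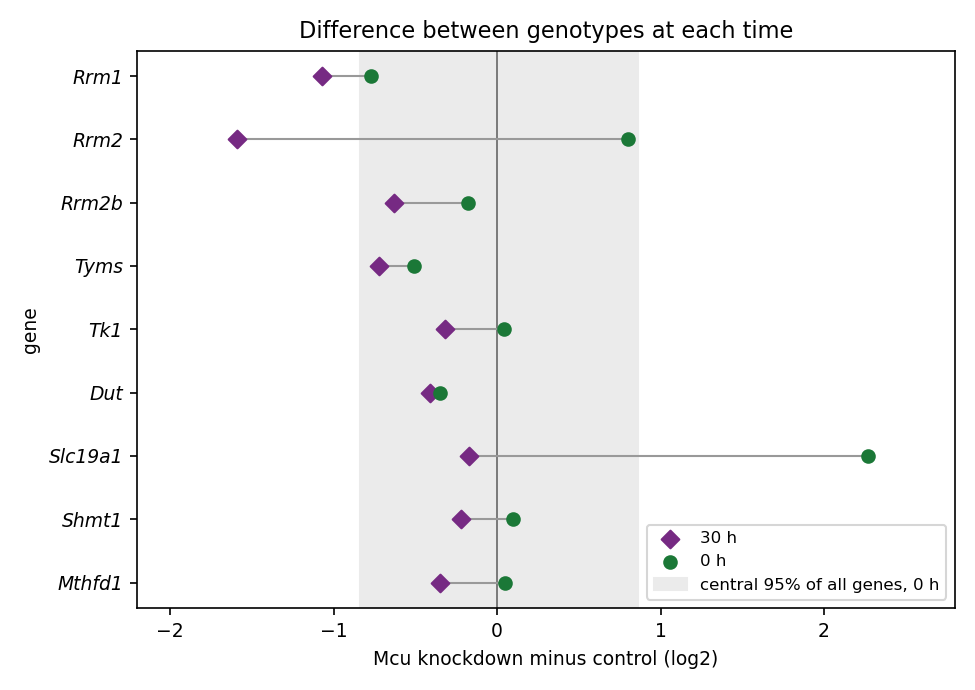
Knockdown minus control (horizontal axis, log2) for each gene, at 30 h as purple diamonds and at 0 h as green circles; the grey band holds the central 95% of all genes at 0 h, from -0.84 to 0.86. Slc19a1 at 0 h (2.27) lies outside the band on the high side, Rrm2 (-1.59) and Rrm1 (-1.07) at 30 h lie beyond it on the low side, and all 9 diamonds are left of 0.

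Genes with the most similar profiles were sought for the 4 genes of the set with a range of at least 1, among 1575 genes that also had a range of at least 1 and a mean at or above the median gene mean, by the Euclidean distance between the 4 values after subtraction of each gene's mean. A profile of 4 arrays holds little information, and likeness here is a description. The nearest to Slc19a1 were Arsa, a lysosomal sulfatase (distance 0.37), Cdkn1a, which encodes the CDK inhibitor p21 (0.41), and Plpp2 (0.61). Cdkn1a read 6.59 at 30 h and 5.89 at 0 h in knockdown liver, against 6.67 at 30 h and 4.05 at 0 h in control liver, so it too was lowest on the control 0 h array. Arsa had 4.34 at 30 h and 4.14 at 0 h in knockdown liver, against 4.58 at 30 h and 2.33 at 0 h in control liver. The nearest to Rrm2 were the histone chaperone Asf1b (0.49), the kinesin Kif20b (0.52) and the replicative helicase subunit Mcm2 (0.54). Those to Rrm1 were Stmn1 (0.41), Mybl1 (0.51) and the condensin subunit Smc4 (0.57), and those to Tyms were Sass6 (0.17), Tagln2 (0.18) and Egln3 (0.18).

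The other genes of the pathway were described from 4 lists. Of 26 other genes of deoxynucleotide synthesis and salvage, 24 were measured. In the knockdown 1 was at least 2-fold higher at 30 h, the thymidylate kinase Dtymk (1.11), and 1 at least 2-fold lower, Cmpk2 (-1.48), a mitochondrial nucleotide kinase induced by interferon. In the control none was called, with Dtymk the highest (0.94) and Slc25a33 the lowest (-0.74). Their medians were -0.04 in the knockdown and 0.22 in the control. None was called between genotypes at either time; the extremes were Nt5m (0.95) and Slc25a33 (-0.77) at 0 h, and Dctd (0.61) and the inosine triphosphatase Itpa (-0.97) at 30 h.

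Of 28 other folate genes, 25 were measured. At 30 h none was at least 2-fold higher in the knockdown and 1 was at least 2-fold lower, the dihydropteridine reductase Qdpr (-1.25); in the control 1 was at least 2-fold higher, the mitochondrial serine hydroxymethyltransferase Shmt2 (1.11, and 0.89 after quantile normalization). Shmt2 read 6.44 at 30 h and 6.69 at 0 h in knockdown liver, against 7.27 at 30 h and 6.16 at 0 h in control liver. Its cytosolic counterpart Shmt1 was nearly level on those arrays. None was called between genotypes at either time, with Mthfd2l the lowest at 0 h (-0.92) and Shmt2 the lowest at 30 h (-0.83). For the other folate carriers, picked for their role after values were seen, knockdown minus control at 0 h was 0.60 for the proton-coupled carrier Slc46a1, -0.60 for the folate receptor Folr1, -0.17 for Folr2 and -0.23 for the mitochondrial carrier Slc25a32. The responses of Shmt2 and Mthfd2l differed by at least 2-fold between the genotypes (-1.36 and 1.14).

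Purine synthesis also draws carbon units from folate. Of 15 listed genes 13 were measured, and of these none was called in the knockdown at 30 h (median 0.01), while in the control 3 were at least 2-fold higher (median 0.50): the adenine salvage enzyme Aprt (1.53), the committed enzyme Ppat (1.22) and Adss (1.03, and 0.87 after quantile normalization). Aprt read 6.59 at 30 h and 6.33 at 0 h in knockdown liver, against 7.59 at 30 h and 6.06 at 0 h in control liver. Between genotypes none was called at 0 h, where the lowest was Adssl1 (-0.72) and the highest Adsl (0.71). At 30 h all 13 were below 0 (median -0.52, highest -0.17), also under median centring, quantile normalization and cyclic loess, and 1 was at least 2-fold lower, Aprt (-1.0, and -0.82 after quantile normalization or cyclic loess). The 2 responses differed by at least 2-fold in Adsl (-1.44), Aprt (-1.27), Paics (-1.08) and Ppat (-1.04). Thus 4 of 13 were called lower, against 5.82% of all genes. Aprt (0.26) and Ppat (0.18) were higher at 30 h in the knockdown too, by less than in the control. Adsl and Paics were lower at 30 h in the knockdown (-0.62 and -0.39) and higher in the control (0.82 and 0.69).

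Of 8 genes of pyrimidine ribonucleotide synthesis, none was called in the knockdown at 30 h (median 0.12) and 1 was at least 2-fold higher in the control (median 0.24), Umps (1.36), which makes uridylate. Ctps and Uckl1 had 0.64 and -0.67 in the knockdown. None was called between genotypes. The extremes were Uckl1 (0.83) and Ctps2 (-0.64) at 0 h, and Uck2 (0.24) and Ctps2 (-0.63) at 30 h. Over the 4 lists together, at 30 h 1 of 70 genes was at least 2-fold higher and 2 lower in the knockdown, and 5 higher and 0 lower in the control, beside the shares of all genes given above.

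**Figure D4:**
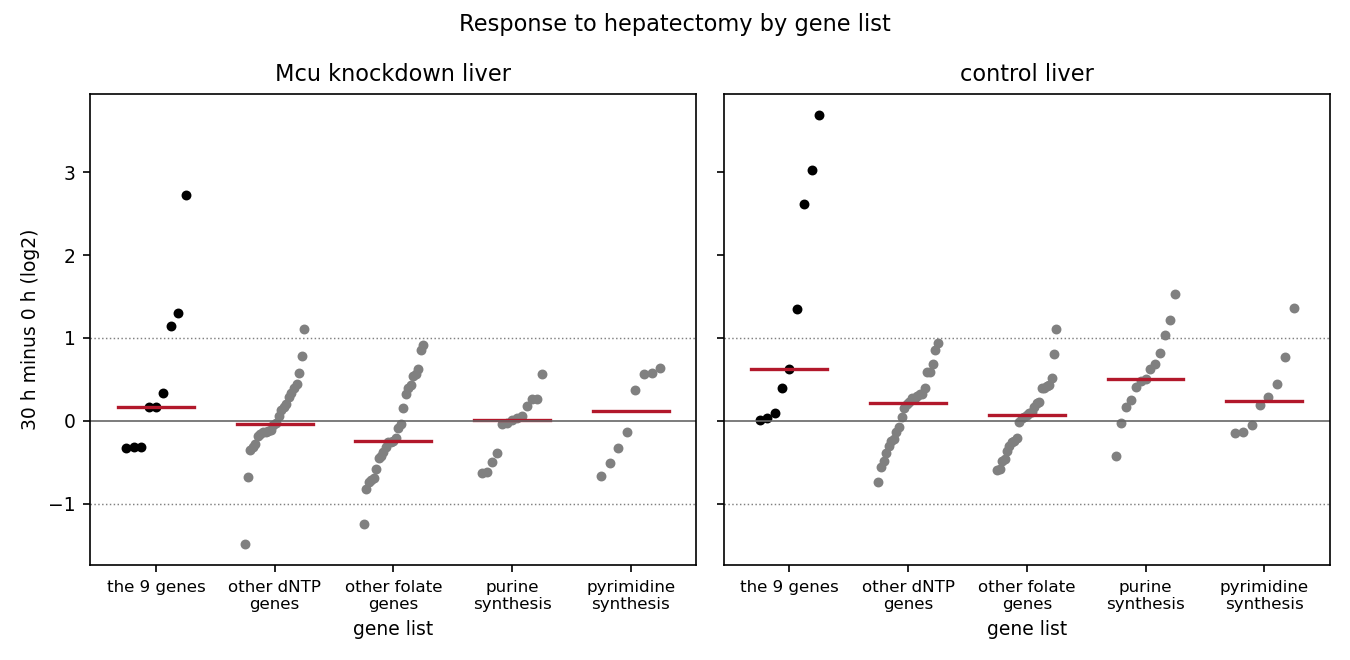
Difference between 30 h and 0 h (vertical axis, log2) in knockdown liver (left) and control liver (right), with a point for each measured gene of the 9-gene set and of 4 other pathway lists, a red bar for each list's median and dotted lines at 2-fold. The 9-gene set holds the highest points in both panels, 2.72 in the knockdown and 3.69 in the control, and the purine list has medians of 0.01 in the knockdown and 0.50 in the control.

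Other S-phase genes give a scale for these differences. Of 15 measured genes of licensing, cyclin E, E2F and fork function, 11 were at least 2-fold higher at 30 h in the knockdown (median 1.77) and 15 in the control (median 3.01), and 8 were at least 2-fold lower in the knockdown than in the control at 30 h (median -1.03). The shares of all genes were 2.72% higher at 30 h in the knockdown, 4.19% higher in the control and 1.86% lower in the knockdown than in the control at 30 h. Of the 9 supply genes, only Rrm1 in the knockdown and Rrm1 and Rrm2 in the control reached the medians between times. Between genotypes at 30 h, Rrm2 (-1.59) and Rrm1 (-1.07) lay below the S-phase median of -1.03. After cyclic loess Rrm1 (-0.93) was not below that median (-0.99). At 0 h, knockdown minus control was above 0 for 13 of the 15 S-phase genes and below 0 for 2, with a median of 0.37. The licensing factor Cdt1 (2.06) and Mcm6 (1.21) were at least 2-fold higher, as Slc19a1 was, against 1.45% of all genes. The primase subunit Prim1 (-1.49) was at least 2-fold lower, against 1.25% of all genes. Rrm1 and Tyms were below 0 at a smaller size and were not called. Of 11 measured p53 targets, 1 was at least 2-fold higher in the knockdown at 0 h, against 1.45% of all genes. It was Cdkn1a (1.84). Of the 11 targets, 9 were above 0 and 2 below, with a median of 0.52, against 0.01 over all genes. Rrm2b, itself a p53 target, differed by -0.18.

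Markers of other cell types differed between the arrays too. At 0 h, where Slc19a1 was higher in the knockdown, 9 of 9 Kupffer cell markers were measured and averaged 5.49 in knockdown liver and 5.05 in control liver. The 8 of 8 sinusoidal endothelial markers averaged 5.34 in knockdown and 4.98 in control liver, and the 8 of 8 stellate cell markers 4.94 in knockdown and 4.59 in control liver. Fewer markers were measured for the remaining types. The 6 of 7 neutrophil markers averaged 3.07 in knockdown and 2.88 in control liver, and the 6 of 7 T and B cell markers 2.77 in knockdown and 2.67 in control liver. The 6 of 7 erythroid markers averaged 4.52 in knockdown and 4.74 in control liver, and the 5 of 6 cholangiocyte markers 3.14 in knockdown and 3.48 in control liver. At 30 h, where all 9 genes were lower in the knockdown, the Kupffer markers averaged 5.46 in knockdown and 5.81 in control liver. The sinusoidal endothelial markers then averaged 4.62 in knockdown and 4.83 in control liver, and the stellate markers 4.78 in knockdown and 4.91 in control liver. These 3 list means were thus lower in the knockdown at 30 h, and the other 4 were higher. The neutrophil markers averaged 3.36 in knockdown and 3.18 in control liver, and the T and B cell markers 2.78 in knockdown and 2.62 in control liver. The erythroid markers averaged 4.56 in knockdown and 4.27 in control liver, and the cholangiocyte markers 3.45 in knockdown and 3.40 in control liver. Single markers did not all follow their list mean at 30 h. Of the Kupffer markers 8 of 9 were below 0 and 1 above, and 6 below and 3 above after quantile normalization or cyclic loess. Of the endothelial markers 5 of 8 were below and 2 above. The stellate markers had 4 below and 4 above, with a median of -0.04 that was 0.08 after quantile normalization or cyclic loess. In the lists with higher means, 4 of 6 neutrophil, 4 of 6 T and B cell, 5 of 6 erythroid and 3 of 5 cholangiocyte markers were above 0. The cholangiocyte median of 0.15 was -0.02 after quantile normalization. The part of these cell types in the results was not tested.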

How the data were processed

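Mouse liver RNA was measured on 4 one-colour arrays, 1 for each group, grouped by title. Per the submitters' processing notes the authors ran RMA (Affymetrix Expression Console is named), and the deposited log2 values hold 1 number for each probe set. Its version, parameters and the genome build were not given in the sources used here. RMA equalises the arrays, so a shift shared by all genes would be hidden, and dim genes have understated folds. Of 22206 probe sets, 19572 carried 1 symbol in GEO's platform annotation, and all of these matched an Entrez ID of GRCm38.p6, used for names. The brightest probe set stood for each of 55 genes with several; each of the 9 genes had 1. Differences between arrays were computed with pandas 2.3.3, and quantile normalization and cyclic loess with limma 3.58.1. With 1 array per group there is no test, and precision is limited by the number of arrays. Differences and calls were tested on simulated data.

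The 9 genes and the lists were chosen with earlier results of these data known. The named genes were the 9, Mcu, the genes of the 4 pathway lists called at 2-fold or with the largest differences, up to 4 S-phase and p53 genes, and the 3 nearest profiles of each gene with a range of at least 1. A comparison of the Rrm2 and Rrm2b proteins was planned and not made. The 7 alternatives were thresholds of 1.5-fold and 3-fold, brighter genes only, median centring, quantile normalization, cyclic loess, and averaging all probe sets of a gene. One label item is left unreported.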

Additional observations from a re-analysis of the deposited data

Results flagged for a closer look

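In 9 of 79 genes (11.4%), knockdown minus control had opposite signs at 30 h and 0 h and the 2 responses differed by at least 2-fold. They were 2 of the 9-gene set (22.2%) and 7 of the 70 other pathway genes (10.0%). Of all 19505 genes, 10.8% met the same rule, so the share over the 79 genes together is near the background. The difference was not tested, because each group is 1 array. Of the 9-gene set these were 2 genes, Slc19a1 (-2.44, with -0.17 at 30 h and 2.27 at 0 h) and Rrm2 (-2.39, with -1.59 at 30 h and 0.80 at 0 h). Of the other folate genes they were Shmt2 (-1.36) and Mthfd2l (1.14). Of the purine genes they were Adsl (-1.44), Aprt (-1.27), Paics (-1.08) and Ppat (-1.04), and of the pyrimidine genes Uckl1 (-1.12).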

How the results depend on the processing

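No paired analysis was possible because each group is 1 array. The counts of called genes depended most on the threshold. At 1.5-fold, in either direction, 3 of the 9 genes were called between genotypes at 0 h (2 higher, 1 lower) and 4 at 30 h (all lower). For the knockdown response 3 of the 9 were called, for the control response 5 and for the difference of responses 2. Of the 70 other pathway genes, 16 were called for the knockdown response, 17 for the control response, 10 between genotypes at 0 h, 15 at 30 h and 23 for the difference of responses. Of all genes, 20.1% were called for the knockdown response, 23.6% for the control response and 34.0% for the difference of responses. Between genotypes the shares were 15.3% at 0 h and 19.6% at 30 h. With both directions together, the pathway counts lie near the background. By direction, 15 were higher and 2 lower for the control response, and 6 higher and 10 lower for the knockdown response. Between genotypes they were 4 higher and 6 lower at 0 h, and 3 higher and 12 lower at 30 h. The difference of responses had 6 higher and 17 lower. Over all genes, 49.9% to 53.2% of calls were higher. Of brighter genes called at 2-fold, 78.8% were higher for the control response and 34.5% at 30 h. At 3-fold, 1 of the 9 was called for the knockdown response and 3 for the control response. Between genotypes 1 was called at 0 h and 1 at 30 h, and 2 were called for the difference of responses. No other pathway gene was called at 3-fold in any comparison. Of all genes, between 0.149% and 1.94% were called at 3-fold in the 5 comparisons. Under both quantile normalization and cyclic loess, 1 of the 9 was called between genotypes at 30 h. Of the 70 other pathway genes, both called 3 for the control response and 0 between genotypes at 30 h. Quantile normalization called 5.74% of all genes for the control response and 3.46% between genotypes at 30 h. Cyclic loess called 5.86% and 3.66%. Quantile normalization called 1 of the 70 at 0 h (2.75% of all genes), and median centring 2 at 30 h (4.19%). Brighter genes only and the mean of probe sets moved no count by over 1.5 times. Of 61 differences of named genes, no called one changed sign under the 4 settings that alter values, and the largest shift was 0.28. Calls were lost under quantile normalization and cyclic loess for Rrm1 and Aprt (genotypes at 30 h), Shmt2 and Adss (control response) and Paics (difference of responses); the cause was not tested. Signal over background is unknown, which limits Rrm2b most.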
